A study of Mus musculus with 6 samples.

Results

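This account concerns 61 genes that were much lower in mouse neuron cultures after knockdown of HDAC2 and also after knockdown of Sp3. A gene was taken where both of the authors' deposited tables gave it the status OK, control FPKM was 1 or more, FPKM in each knockdown was above 0, and the log2 ratio of knockdown to control was below -1.5 in both tables. The rule left out Sap18 and all symbols that begin with Irf, Ifi or Hsp, which removed 1 gene that met the thresholds. The members were therefore chosen by their measured FPKM ratios in both knockdowns. The 61 members were found among 12939 genes that passed the same filters and 23235 genes in all. FPKM is a fragment count scaled to transcript length and library size, so levels of different genes can be set side by side. Because the rule used the ratios in both knockdowns, the low values of the members are a description and not a finding, and no test of them is given.

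The libraries came from cortical and hippocampal cells taken from mouse embryos at day 15 and kept in culture for 17 days. Every culture, control cultures included, received 1 uM AraC on day 5, a nucleoside that blocks dividing cells, and lentivirus with short hairpin RNAs on day 12. The 3 groups of 2 libraries were HDAC2 shRNAs, Sp3 shRNAs and a group labelled only as control, whose hairpin is not described. Hairpin sequences and their number per target are not stated in the labels, nor is it stated whether the 2 libraries of a group are separate cultures.

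HDAC2 is a class I histone deacetylase, an enzyme that removes acetyl groups from histone tails as part of corepressor complexes such as Sin3, NuRD and CoREST. Sp3 belongs to the Sp family of zinc finger factors, which recognise GC boxes in promoters, and it can act as an activator or a repressor. B2, which enters the results below, is a family of short interspersed repeats of rodent genomes that arose from a transfer RNA gene and carries an RNA polymerase III promoter, and many copies lie inside introns and untranslated regions (UTRs) of genes.

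The members were searched for sequence that they share, a property the rule did not use. Annotated spliced transcripts (GENCODE M21, mouse build GRCm38) were found for 59 of the 61 members, 5 of them by a synonym, and for 12714 of the 12878 other genes with the same filters. The commonest 16-base words over all reference transcripts were listed, either strand counted, and a gene was counted once if any of its transcripts held the word. The words of rank 9 and rank 10, which overlap by 6 bases, stood in far more members than other genes. Both belong to the B2 repeat and join into a block of 26 bases. They are shown here because they are the sequence that most of the members hold.
rank 9 word: cacatggtggctcaca
rank 10 word: catgtggttgctggga
joined block: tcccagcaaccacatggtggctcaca

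At least 1 of the 2 words was held by 41 of 59 matched members (69.5%), against 1053 of 12714 other genes (8.28%). The word of rank 9 stood in 39 members (66.1%) and in 6.505% of the other genes. That of rank 10 stood in 35 members (59.3%) and in 6.36% of the other genes. These 2 words were chosen after the shares were seen. The 4 commonest words of the list, which were the main search, are shown for comparison.
rank 1 word: aggccagcctggtcta
rank 2 word: agtgctgggattaaag
rank 3 word: agttccaggacagcca
rank 4 word: agacagggtttctctg

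Any of these 4 stood in 17 members (28.8%), against 20.1% of the other genes. Among the 12 commonest words, the 10 outside the B2 block were held by 6.78% to 16.9% of the members and 5.49% to 11.7% of the other genes, so the gap at ranks 9 and 10 was of another size. Rank 12 is ctgagccatctctcca, whose reverse complement lies near the start of the B2 repeat and outside the block, and it stood in 9 members (15.3%) and in 5.49% of the other genes.

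**Figure D1:**
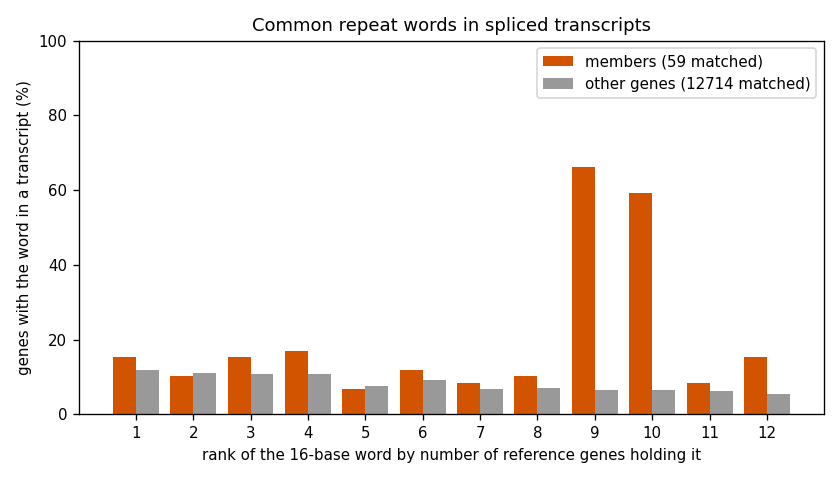
Share of genes (percent, vertical axis) whose annotated spliced transcripts hold each of the 12 commonest 16-base words (horizontal axis, rank by number of reference genes with the word), for the 59 matched members (orange) and the 12714 other matched genes (grey). The bars at ranks 9 and 10, both B2 words, reach 66.1% and 59.3% in members, against 6.505% and 6.36% in other genes.

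A window of 30 transcript bases around the match is printed for examples in each direction, with the matching bases in capitals. Churc1, H2-T23, Irak1 and Cflar hold it in the sense direction, and Nanog, Omd and Tnfsf10 in antisense, where the capitals are the reverse complement. Nip7, Pramel4 and Ptcra hold only 1 of the 2 words in full.
Churc1, bases 521 to 550: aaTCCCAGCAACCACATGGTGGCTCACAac
H2-T23, bases 1335 to 1364: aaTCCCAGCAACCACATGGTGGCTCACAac
Irak1, bases 2656 to 2685: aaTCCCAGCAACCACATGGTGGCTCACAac
Cflar, bases 4901 to 4930: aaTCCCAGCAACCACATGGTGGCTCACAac
Nanog, bases 1297 to 1326: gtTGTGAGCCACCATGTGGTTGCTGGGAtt
Omd, bases 433 to 462: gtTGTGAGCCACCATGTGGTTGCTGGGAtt
Tnfsf10, bases 3168 to 3197: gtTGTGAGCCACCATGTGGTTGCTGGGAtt
Nip7, bases 1779 to 1808: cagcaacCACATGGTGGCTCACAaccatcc
Pramel4, bases 1670 to 1699: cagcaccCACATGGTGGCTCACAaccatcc
Ptcra, bases 1136 to 1165: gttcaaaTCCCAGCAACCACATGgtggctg

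All 26 bases stood in 33 members, and the other 8 held only 1 of the 2 words of 16 bases in full. Only exact matches were counted, so these numbers do not measure how alike the copies are. The window printed for Churc1 was the same, letter for letter, in 18 members, and the one printed for Nanog in 9 members. The 41 members held 42 copies, since Mpv17 had 2. Of these copies 35 (83.3%) lay in a 3′ UTR, 1 in a 5′ UTR (that of Omd), and 6 in exons of non-coding transcripts. In the other genes 399 of 1136 copies (35.1%) lay in a 3′ UTR and 717 (63.1%) in non-coding exons. Copies were read in 1 transcript per gene that holds a word, RefSeq-matched before others, then protein-coding before others. A RefSeq-matched transcript held a word in 37 members and in 303 of the other genes, so the regions were not compared on like transcripts. Non-coding transcripts here include those with a retained intron. The repeat ran in the sense direction in 29 of 42 copies in members (69.0%), against 46.7% of copies in other genes. The direction was sense in 28 members and antisense in 13.

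The B2 words did not mark every gene that holds them. Of the 1094 matched genes with a B2 word, 41 (3.75%) were members, and 775 (70.8%) were in neither knockdown more than 0.5 below the median gene on the log2 scale. The 1053 other genes with a word had median raw log2 ratios of 0.23 in HDAC2 knockdown and -0.21 in Sp3 knockdown, close to 0.31 and -0.13 in the other genes without one. Read the other way, the share of matched genes with a word was higher the lower a gene was in both. Taking the less negative of its 2 raw log2 ratios, the share was 20 of 29 (69.0%) below -2, 21 of 31 (67.7%) from -2 to -1.5, 28 of 55 (50.9%) from -1.5 to -1, 42 of 271 (15.5%) from -1 to -0.5, 9.48% from -0.5 to 0 and 7.64% at 0 and above. The 2 bins below -1.5 hold the matched members, whose shares picked the words, and the gene left out by symbol. Only the bins above -1.5 are separate from that choice. Genes below -1.5 in only 1 knockdown had other shares. Of the 37 matched genes below it in HDAC2 knockdown alone 0 held a word, and of the 127 below it in Sp3 knockdown alone 29 did (22.8%). Of 13 genes above 1.5 in both, 1 did (7.69%).

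**Figure D2:**
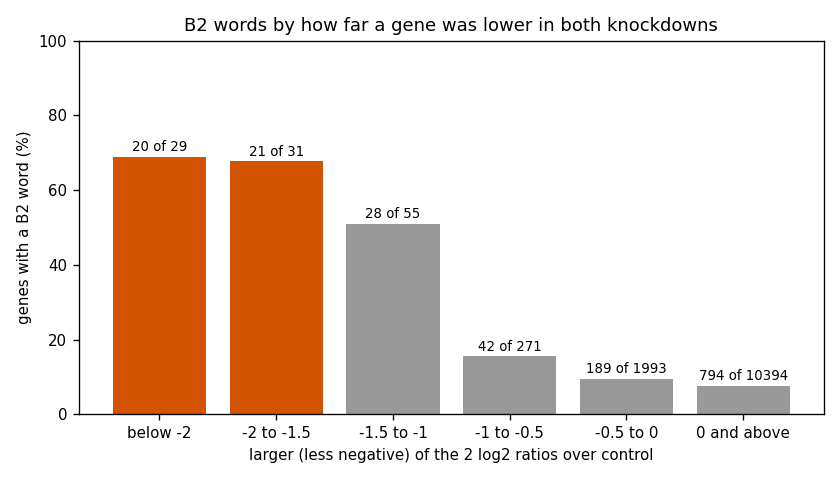
Share of matched genes whose transcripts hold a B2 word (percent, vertical axis), by the less negative of a gene's 2 raw log2 ratios over control (horizontal axis), with the number of genes over each bar. The 2 orange bars lie past the threshold of the rule (69.0% and 67.7%), and the share is 50.9% in the next bin and 7.64% at 0 and above. The orange bars hold the members, whose shares picked the words, so only the grey bars are separate from that choice.

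The share with a word was higher in members at each range of control level. Among members with control FPKM from 5 to 50, 18 of 22 held a word, against 9.62% of other genes in that range, and among those at 50 FPKM or more 21 of 28 did, against 7.11%. Among the 9 members under 5 FPKM, 2 did, against 5.76%. The share in members also remained above that in other genes when only transcripts with a RefSeq match were read (62.7% against 2.38%), when 1 mismatch was allowed (78.0% against 12.1%), and when the whole block was required (55.9% against 4.47%). All of these are readings of the same 2 words in the same members, whose shares picked the words. They show how the count depends on the settings and are not separate support. How the authors' programs placed fragments that match several genome copies of a repeat is not stated in the labels, and its part in the values of members with the block was not tested.

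The 41 members with a B2 word had median raw log2 ratios of -1.98 in HDAC2 knockdown and -2.65 in Sp3 knockdown, and the 18 matched members without one -2.02 and -2.68. All of these ratios were selected by the rule, so nothing is read from their likeness. The median control level was 50.7 FPKM in members with a word and 15.9 FPKM in members without one. The members without one include the member with the lowest ratio in HDAC2 knockdown, Vmn2r-ps129, and also Bcas2, Lcmt2, Ripply3, Padi4, Akr1d1, Mmel1, Cacng6, Npffr1, Sgol2, Mir677, A330069E16Rik, 4833417C18Rik, A830007P12Rik, Gm14005, AA465934, B230119M05Rik and Gm16516. BC016495 and BC033916 had no matched transcript. Members without a word are those without an exact match, and 46 of 59 matched members held a word when 1 mismatch was allowed.

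GC boxes, the motif that Sp family factors bind, were counted in RefSeq promoters (mouse build GRCm38.p6, 250 bases before to 50 bases after the start), which were found for 49 members. The core GGGCGG stood on either strand in 17 of 49 members (34.7%), against 69.8% of 10065 other genes with the same filters and 38.2% of all 27025 genes in the promoter table. The longer form GGGGCGGGG, which contains the core, stood in 5 members (10.2%), against 25.2% of the other genes and 12.9% of all genes. The members' promoters also held less G and C, with a median of 54.3% against 61.3% in the other genes. The 250 bases before the start are printed for 3 of the most highly expressed members with 1, 4 and 0 boxes, with the boxes on either strand in capitals. They lie at chr12:76765288-76765537 on the plus strand for Churc1, chr2:91236896-91237145 on the plus strand for A330069E16Rik and chr17:36032702-36032951 on the minus strand for H2-T23.
Churc1 promoter: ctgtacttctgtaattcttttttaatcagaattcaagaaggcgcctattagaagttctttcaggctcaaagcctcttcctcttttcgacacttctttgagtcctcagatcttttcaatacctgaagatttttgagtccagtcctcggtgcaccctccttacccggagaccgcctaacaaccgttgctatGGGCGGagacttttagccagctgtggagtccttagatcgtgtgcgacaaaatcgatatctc
A330069E16Rik promoter: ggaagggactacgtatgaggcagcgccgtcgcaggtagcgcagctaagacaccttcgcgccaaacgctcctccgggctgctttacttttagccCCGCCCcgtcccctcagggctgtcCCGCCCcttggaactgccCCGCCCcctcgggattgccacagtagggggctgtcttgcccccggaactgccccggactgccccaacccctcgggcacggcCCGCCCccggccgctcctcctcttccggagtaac
H2-T23 promoter: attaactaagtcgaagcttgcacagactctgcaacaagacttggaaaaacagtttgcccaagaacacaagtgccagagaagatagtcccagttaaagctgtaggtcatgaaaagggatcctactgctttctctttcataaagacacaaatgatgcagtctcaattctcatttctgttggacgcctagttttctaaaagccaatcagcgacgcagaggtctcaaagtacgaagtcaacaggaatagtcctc

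A match to these letters is not evidence that a factor binds there, and their absence from a window says nothing about binding elsewhere.

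The authors deposited 1 FPKM value per group and none per library, so no spread between libraries can be shown and the read depth is unknown. The error given below is the standard error (SE) implied by the authors' test statistic, on the log2 scale. Hdac2 stood at 12.3 FPKM in HDAC2 knockdown and 38.8 FPKM in Sp3 knockdown, against 49.4 FPKM in control. Sp3 stood at 26.7 FPKM in HDAC2 knockdown and 5.82 FPKM in Sp3 knockdown, against 15.5 FPKM in control. Each target was thus lowest in the knockdown named for it. The median gene of at least 1 FPKM was itself shifted, by 0.32 in HDAC2 knockdown and -0.13 in Sp3 knockdown on the log2 scale, so ratios below are given relative to it and called centred. Raw ratios are named as such. Both knockdowns are set against the same control value, so an error in that value would move both ratios of a gene together.

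The raw thresholds were passed by few genes. In HDAC2 knockdown 102 of the 12939 genes lay below -1.5 (0.788%), in Sp3 knockdown 196 did (1.51%), and in both 62 did (0.479%), which are the members and the 1 gene left out by symbol. The 3 members nearest inside the threshold were Mmel1 (-1.52 in HDAC2 knockdown), 1600029O15Rik (-1.53) and Sgol2 (-1.54). The 3 genes nearest outside it were AW011738 (-1.49), Col7a1 (-1.48) and Brip1 (-1.47), all of them below -1.5 in Sp3 knockdown. The members thus form the end of a continuous range with no gap at the threshold.

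The members had a median centred log2 ratio of -2.30 in HDAC2 knockdown, with a range of -3.47 to -1.84, and of -2.53 in Sp3 knockdown, with a range of -3.96 to -1.58. The other genes had medians of -0.01 and -0.00. The members' median level was 9.48 FPKM in HDAC2 knockdown and 6.05 FPKM in Sp3 knockdown, against 36.5 FPKM in control. In the other genes the median was 13.3 FPKM in HDAC2 knockdown, 9.58 FPKM in Sp3 knockdown and 10.5 FPKM in control. In control cultures 28 of 61 members (45.9%) reached 50 FPKM, as did 11.0% of all genes with the same filters, but control FPKM is the denominator of both ratios in the rule, so nothing is read from this. Their loci were short, with a median span of 13.6 kb against 26.3 kb in the other genes. They lay on 17 chromosomes, with the most, 9, on chromosome 2, which of these 17 also held the most genes with the same filters (1050). Members were 0.857% of those genes, against 0.801% on chromosome 17 and 0.782% on chromosome 10.

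In the authors' deposited table for HDAC2 knockdown, 54 members were called lower at q under 0.05, where 3.72% of genes with the same filters and 3.6% of all tested genes were. The authors' deposited table for Sp3 knockdown called 55 members lower, where the shares were 27% and 26.1%. Both tables called the same 54 members, beside 2.33% of the genes with the same filters, and since the rule used these contrasts nothing is read from the counts. No call in either of the authors' deposited tables was given to 6 members, namely Mir677, AA465934, Cacng6, B230119M05Rik, Npffr1 and Gm16516, and Gm7616 was called in Sp3 knockdown only (q = 0.043) and not in HDAC2 knockdown (q = 0.117). The members without a call had large SEs. Among all members the median SE was 0.28 in HDAC2 knockdown and 0.18 in Sp3 knockdown, while those of Mir677 were 2.01 and 2.13 and those of Npffr1 1.21 and 1.72.

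**Figure D3:**
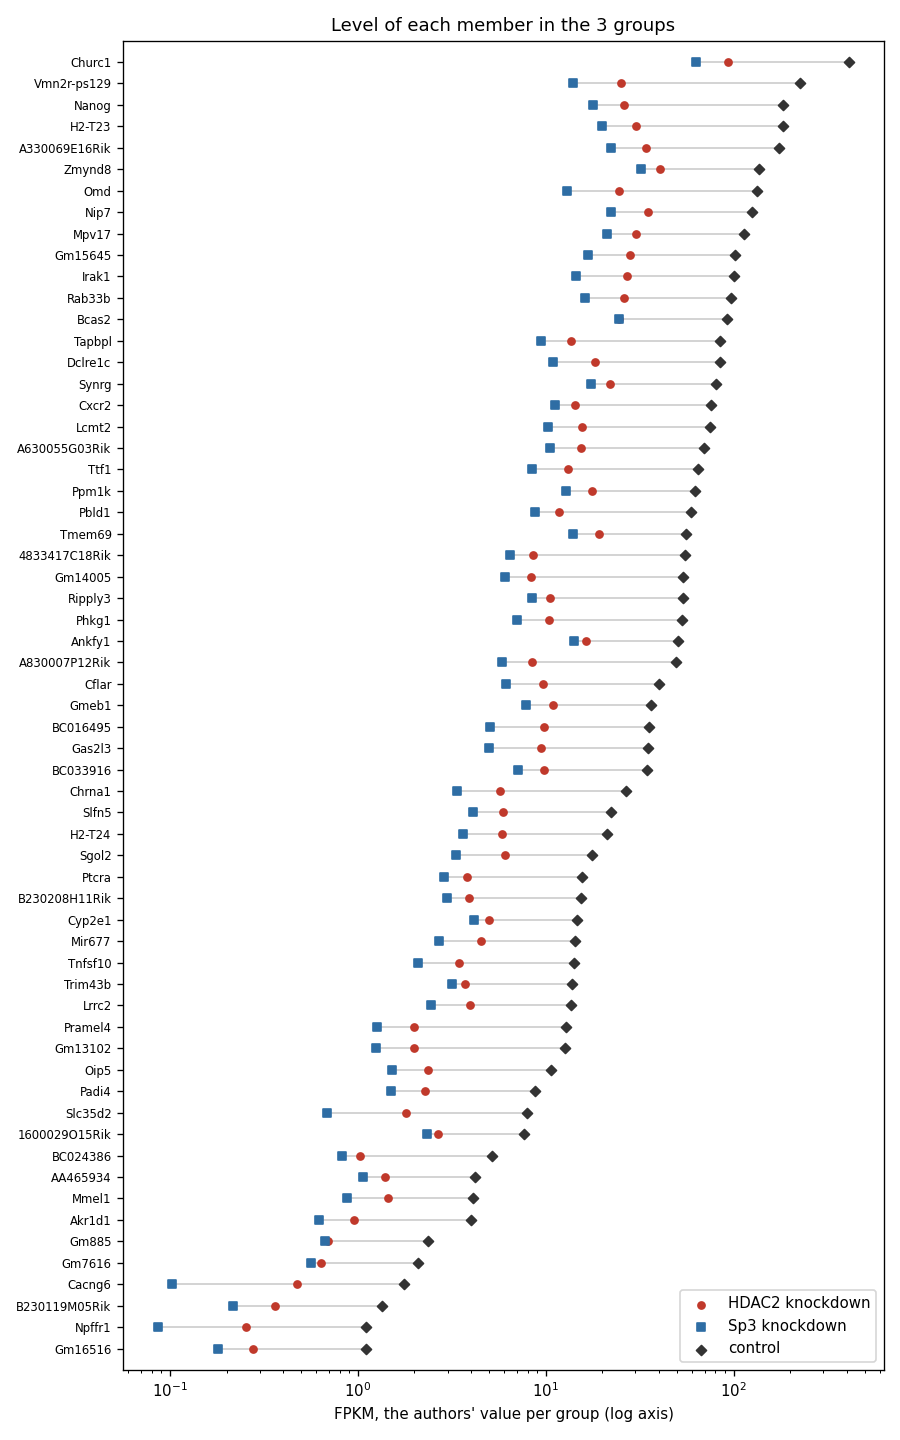
FPKM of each of the 61 members (rows, ordered by control level, log axis) in HDAC2 knockdown (red circles), Sp3 knockdown (blue squares) and control (black diamonds), 1 value per group as the authors deposited it, with no error bars because no value per library was at hand. Control is highest in every row, Sp3 knockdown is lowest in all rows but that of Bcas2, where both knockdowns stand at the same place (24.5 and 24.6 FPKM), and the control values run from 1.10 to 412 FPKM.

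The 2 knockdowns gave different raw values. Raw log2 ratios were lower in Sp3 knockdown than in HDAC2 knockdown in 60 of 61 members, as they were in 81.2% of all genes, and the median of the difference, HDAC2 minus Sp3, was 0.59 in members and 0.43 in other genes. After centring, the median difference was 0.15 in members, 44 of 61 were lower in Sp3 knockdown, and 58 of 61 (95.1%) stood within 1.5-fold between the knockdowns, against 72.3% of all genes. Before centring these were 30 of 61 (49.2%) and 58.2%. These shares rest on ratios that the rule used. The largest raw differences belonged to Cacng6 (2.21), Npffr1 (1.55), Slc35d2 (1.39), BC016495 (0.96) and Gas2l3 (0.93), the first 2 of which have large SEs. The smallest belonged to Bcas2 (-0.00), Gm885 (0.07), Gm7616 (0.17), 1600029O15Rik (0.19) and Ankfy1 (0.22).

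**Figure D4:**
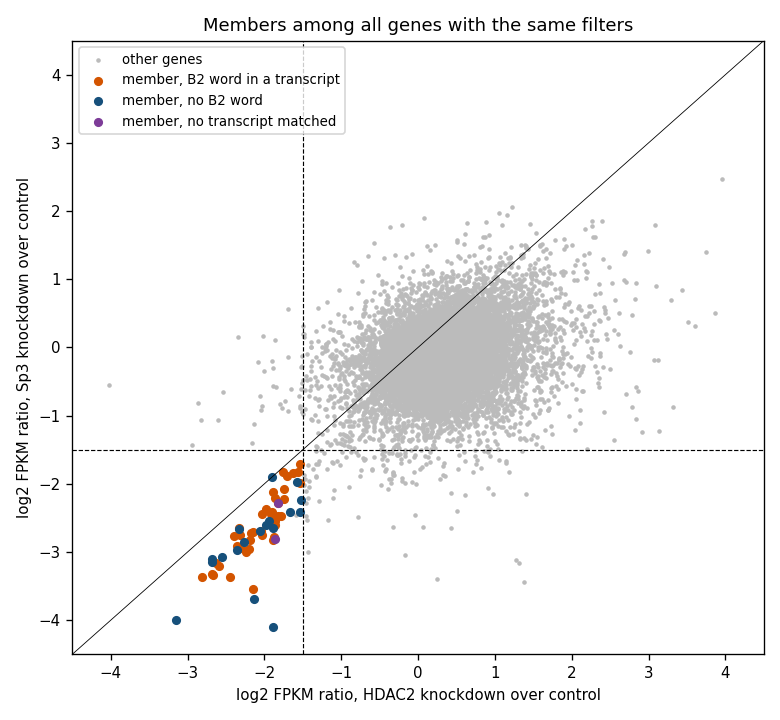
Raw log2 FPKM ratio to control in HDAC2 knockdown (horizontal axis) and Sp3 knockdown (vertical axis) for the members with a B2 word (orange), without one (blue) and without a matched transcript (purple), and for the other genes (grey, 4 of them outside the plotted range of 4.5 on each side of 0). Dashed lines mark the rule's threshold of -1.5 and the diagonal marks equal ratios. Members lie along a band below the diagonal, and members with and without a B2 word are mixed along it.

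The members were sorted by known roles into 7 groups, of which the largest were 16 predicted, clone-named and non-coding genes, 13 genes of nuclear and RNA functions and 11 genes of immunity and cell death. In Sp3 knockdown the centred medians were -2.58 to -2.34 in 6 of the groups and -3.23 in the 5 receptors, channels and matrix genes. That -3.23 is the value of Omd. Cacng6 and Npffr1, which lie below it, had SEs of 2.05 and 1.72 in Sp3 knockdown and were not called. The nuclear and RNA group had medians of -2.49 in HDAC2 knockdown and -2.58 in Sp3 knockdown, and the immune and cell death group -2.35 and -2.56. B2 words stood in 10 of 11 matched members of the immune and cell death group, 9 of 13 of the nuclear and RNA group, 7 of 8 of metabolism and transport, 4 of 5 of membrane traffic and cytoskeleton, 2 of 5 of receptors, channels and matrix, 3 of 3 other named protein genes and 6 of 14 predicted, clone-named and non-coding genes.

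**Figure D5:**
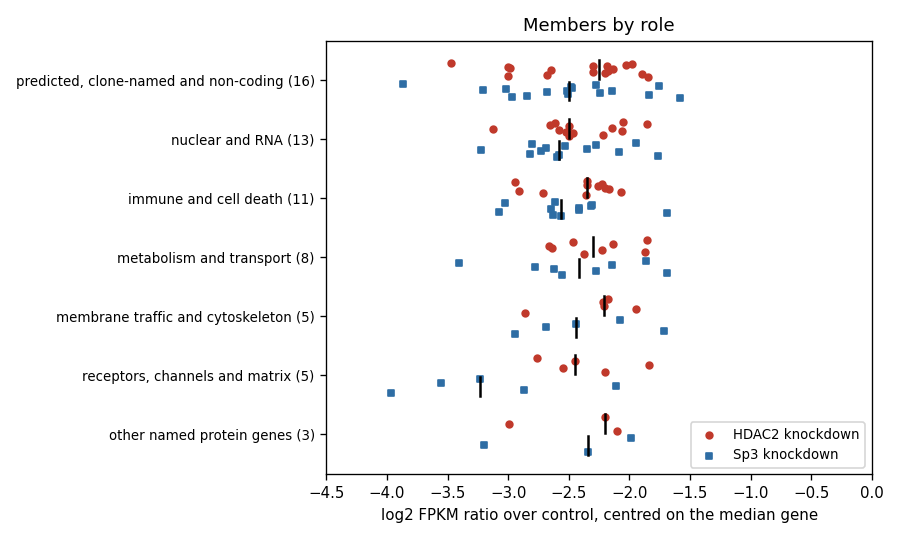
Centred log2 FPKM ratio to control of each member (horizontal axis) in HDAC2 knockdown (red circles) and Sp3 knockdown (blue squares), by role group (rows, number of members in brackets), with a black line at each group's median. The groups overlap throughout, and the lowest median is that of the 5 receptors, channels and matrix genes in Sp3 knockdown (-3.23). This median is the value of Omd, and Cacng6 and Npffr1, which lie below it, were not called and have large SEs.

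Among the nuclear and RNA genes, Churc1, which encodes a zinc-binding protein known from early neural development in chick embryos, had the highest control level of all members. It lies on chromosome 12, 77866559 to 77884165 in mm9, the build of the deposited files. Churc1 stood at 92.7 FPKM in HDAC2 knockdown and 62.8 FPKM in Sp3 knockdown, against 412 FPKM in control, with centred log2 ratios of -2.47 ± 0.28 and -2.58 ± 0.18 (± SE here and below). Even at its lowest, Churc1 remained above the control level of most members.

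Nanog, the homeobox factor of pluripotent stem cells (chromosome 6, 122657585 to 122663796 in mm9), stood at 26.2 FPKM in HDAC2 knockdown and 17.9 FPKM in Sp3 knockdown, against 184 FPKM in control. Its centred ratios were -3.13 ± 0.28 and -3.23 ± 0.19. A control level of 184 FPKM for Nanog was not matched by its usual partners in stem cells. Pou5f1 was at 0.308 FPKM in HDAC2 knockdown and 0.0609 FPKM in Sp3 knockdown, against 0.328 FPKM in control, and Zfp42 and Dppa3 were listed at 0 in control. The locus of Nanog overlaps 1 other listed locus, Nanogpd, and its transcript holds the antisense B2 block shown above. Of the 15 listed pluripotency and germline genes, 4 were tested after HDAC2 and 5 after Sp3 knockdown. According to the authors' deposited tables, Nanog and Pramel4 were called lower in both, while Sox2, also a neural progenitor factor, was called higher in HDAC2 knockdown (84.1 FPKM) and lower in Sp3 knockdown (17.8 FPKM), against 32.3 FPKM in control. Among all tested genes, 24.6% were called higher and 3.6% lower in HDAC2 knockdown, and 13.2% and 26.1% in Sp3 knockdown.

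The other genes of this group spanned several steps of chromatin and RNA work. Zmynd8, a reader of modified histone tails, stood at 40.7 FPKM in HDAC2 knockdown and 32.3 FPKM in Sp3 knockdown, against 136 FPKM in control. Nip7, which acts in assembly of the large ribosomal subunit, stood at 35.0 and 22.3 FPKM in HDAC2 and Sp3 knockdown, against 125 FPKM in control. Bcas2, a spliceosome component, stood at 24.5 FPKM in HDAC2 knockdown and 24.6 FPKM in Sp3 knockdown, against 91.6 FPKM in control. In raw FPKM Bcas2 was the member with the most even levels between knockdowns, and it has no B2 word. After centring, its ratios were -2.22 in HDAC2 knockdown and -1.77 in Sp3 knockdown. The centred difference, HDAC2 minus Sp3, was -0.45 for Bcas2, the lowest among the members. Dclre1c, the Artemis nuclease of DNA end joining, had centred ratios of -2.52 ± 0.28 in HDAC2 knockdown and -2.82 ± 0.19 in Sp3 knockdown. Ttf1, the termination factor of RNA polymerase I, had -2.62 ± 0.28 and -2.802 ± 0.18. Lcmt2, a transfer RNA modification enzyme, Gmeb1, a DNA-binding cofactor of glucocorticoid response, and Ripply3, a corepressor of T-box factors, had centred ratios from -2.65 to -2.06 in HDAC2 knockdown. A630055G03Rik, the older symbol of Rmi2 in a complex that resolves DNA crossovers, belongs here too, as do 2 genes of centromere function, Sgol2 and Oip5. Sgol2 stood at 6.07 FPKM in HDAC2 knockdown and 3.31 FPKM in Sp3 knockdown, against 17.6 FPKM in control, and Oip5 at 2.36 and 1.51 FPKM, against 10.7 FPKM in control.

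The immune and cell death genes included 2 class I histocompatibility genes and 1 relative of their loading machinery. H2-T23, which encodes the Qa-1 molecule recognised by natural killer cell receptors, stood at 30.3 FPKM in HDAC2 knockdown and 19.9 FPKM in Sp3 knockdown, against 183 FPKM in control. H2-T24, a gene of the same family, stood at 5.83 and 3.60 FPKM, against 21.1 FPKM in control. Both are listed with 1 shared locus, chromosome 17, 36131448 to 36175119 in mm9. Whether their sequences are alike enough for fragments to be split between them was not tested, so their values are uncertain. Tapbpl, a tapasin relative that edits the peptides of class I molecules, stood at 13.7 FPKM in HDAC2 knockdown and 9.46 FPKM in Sp3 knockdown, against 84.5 FPKM in control. Its centred ratios, -2.94 ± 0.25 and -3.03 ± 0.16, were close to the -2.91 ± 0.27 and -3.07 ± 0.18 of H2-T23.

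Other genes of the antigen presentation list gave different values. Of 17 listed genes tested in HDAC2 knockdown, the authors' deposited table called 6 higher, where 24.6% of all tested genes were, and 3 lower, where 3.6% were, which are H2-T23, H2-T24 and Tapbpl. Of 18 tested in Sp3 knockdown, the authors' deposited table called 6 higher, where 13.2% of all tested genes were, and 4 lower, where 26.1% were, the same 3 members and Pdia3. B2m, the light chain of class I molecules, stood at 53.5 FPKM in HDAC2 knockdown and 21.6 FPKM in Sp3 knockdown, against 9.53 FPKM in control. H2-K1, a classical class I gene, stood at 19.9 and 14.7 FPKM, against 9.53 FPKM in control, and the loading factor Tapbp at 16.9 and 14.5 FPKM, against 11.6 FPKM in control. After centring, B2m (2.17 and 1.31) and H2-K1 (0.75 and 0.76) kept their direction in both knockdowns.

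The members of this group in signalling and cell death were Irak1, Cxcr2, Cflar, Tnfsf10 and Slfn5. Irak1, a kinase downstream of Toll-like and interleukin receptors, stood at 27.1 FPKM in HDAC2 knockdown and 14.5 FPKM in Sp3 knockdown, against 99.98 FPKM in control, and its SEs of 0.14 and 0.075 were the smallest among the members in both comparisons. Tnfsf10, the death ligand TRAIL, stood at 3.44 and 2.10 FPKM, against 14.1 FPKM in control. Cflar, the inhibitor of caspase activation at death receptors, stood at 9.71 and 6.17 FPKM, against 39.9 FPKM in control. A death ligand and an inhibitor of the pathway it starts were thus both among the members. Cxcr2, a chemokine receptor of neutrophils, stood at 14.4 FPKM in HDAC2 knockdown and 11.2 FPKM in Sp3 knockdown, against 75.6 FPKM in control. Slfn5, an interferon-induced Schlafen gene, had centred ratios of -2.22 ± 0.24 and -2.31 ± 0.14. The remaining 3 are known from blood cells, namely Ptcra (the pre-T cell receptor alpha chain), Padi4 (an arginine deiminase of neutrophils) and Gm885, the older symbol of the mast cell receptor Milr1.

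Genes of microglia and macrophages were near the floor in all groups. Their 13 listed markers summed to 5.98 FPKM in HDAC2 knockdown and 4.74 FPKM in Sp3 knockdown, against 6.71 FPKM in control, most of it Cd68, and Tmem119, Tyrobp and C1qc were listed at 0 in every group. The labelled cell type was present, since all 11 listed neuron markers found in the table were tested and summed to 1718 FPKM in HDAC2 knockdown and 2032 FPKM in Sp3 knockdown, against 1697 FPKM in control. Of these 11, 0 were called in HDAC2 knockdown in the authors' deposited tables, and 5 were called higher and 1 lower in Sp3 knockdown. The authors' deposited tables called 9 astrocyte markers higher and 0 lower of 13 tested in HDAC2 knockdown, and 1 higher and 7 lower of 14 in Sp3 knockdown. They called 13 oligodendrocyte lineage markers higher and 0 lower of 17 tested in HDAC2 knockdown, and 0 higher and 9 lower of 12 in Sp3 knockdown. Of all tested genes, 24.6% were called higher and 3.6% lower in HDAC2 knockdown, and 13.2% and 26.1% in Sp3 knockdown. Sums rest on the most abundant genes, such as Slc1a3 in astrocytes, which stood at 721 FPKM in HDAC2 knockdown and 212 FPKM in Sp3 knockdown, against 173 FPKM in control. The centred ratio of Slc1a3 in HDAC2 knockdown was 1.74 ± 1.46, and it was called in neither of the authors' deposited tables. The 15 astrocyte markers summed to 1930 FPKM in HDAC2 knockdown and 590 FPKM in Sp3 knockdown, against 686 FPKM in control, and the 19 oligodendrocyte lineage markers in the table to 479 and 133 FPKM, against 232 FPKM in control. The part of cell composition in the members' values was not tested, and in bulk RNA fewer cells of a type and less RNA per cell cannot be told apart.

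Among the receptors, channels and matrix genes, Omd had by far the highest level. Omd encodes osteomodulin, a small leucine-rich proteoglycan known from bone and meninges (listed locus on chromosome 13, 49559427 to 49748100 in mm9). It stood at 24.4 FPKM in HDAC2 knockdown and 12.9 FPKM in Sp3 knockdown, against 133 FPKM in control, with centred ratios of -2.76 ± 0.25 and -3.23 ± 0.16. The listed locus of 189 kb overlaps 4 other loci, Aspn, Cenpp, Ecm2 and Ogn. Its relatives were at other levels. Dcn stood at 38.4 FPKM in HDAC2 knockdown and 49.9 FPKM in Sp3 knockdown, against 26.6 FPKM in control, and Ogn, a direct neighbour, at 1.32 and 1.67 FPKM, against 1.05 FPKM in control. Of 6 tested small leucine-rich proteoglycans, the authors' deposited tables called 1 higher (Dcn) and 1 lower (Omd) in HDAC2 knockdown, and 2 higher (Dcn and Fmod) and 2 lower (Omd and Prelp) in Sp3 knockdown. The shares of all tested genes were 24.6% higher and 3.6% lower in HDAC2 knockdown, and 13.2% higher and 26.1% lower in Sp3 knockdown. Omd is also 1 of 16 listed endothelial, pericyte and meningeal markers. These summed to 367 FPKM in HDAC2 knockdown and 234 FPKM in Sp3 knockdown, against 282 FPKM in control, with Igfbp2 alone at 297 and 166 FPKM, against 118 FPKM in control. Of the 7 of these markers tested in HDAC2 knockdown, the authors' deposited table called 4 higher and 1 lower (Omd). Of the 7 tested in Sp3 knockdown, 2 were called higher and 2 lower (Omd and Pdgfrb). The shares of all tested genes are those given above. Col1a1 and Col1a2 stayed under 0.5 FPKM in every group, and the part of such cells in the level of Omd was not tested.

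Chrna1, the alpha subunit of the muscle acetylcholine receptor, stood at 5.72 FPKM in HDAC2 knockdown and 3.36 FPKM in Sp3 knockdown, against 26.9 FPKM in control. Mmel1, a neprilysin-like peptidase, stood at 1.44 and 0.873 FPKM, against 4.12 FPKM in control. Cacng6, an accessory calcium channel subunit, stood at 0.475 FPKM in HDAC2 knockdown and 0.103 FPKM in Sp3 knockdown, against 1.76 FPKM in control. Npffr1, the receptor of neuropeptide FF, stood at 0.252 and 0.0861 FPKM, against 1.11 FPKM in control. The last 2 carry the lowest ratios of the group in Sp3 knockdown, at -3.96 ± 2.05 and -3.55 ± 1.72, but the authors' deposited tables called neither in either comparison.

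Of the 8 metabolism and transport genes, 2 act in mitochondria. Mpv17, an inner membrane protein needed to keep mitochondrial DNA, stood at 30.1 FPKM in HDAC2 knockdown and 21.3 FPKM in Sp3 knockdown, against 113 FPKM in control, and Ppm1k, the phosphatase of branched-chain ketoacid dehydrogenase, at 17.7 and 12.8 FPKM, against 62.3 FPKM in control. Enzymes best known outside the brain were also present. Phkg1, the muscle form of the catalytic subunit of phosphorylase kinase, stood at 10.3 FPKM in HDAC2 knockdown and 7.01 FPKM in Sp3 knockdown, against 52.8 FPKM in control. Cyp2e1, the ethanol-inducible cytochrome P450 of liver, stood at 4.999 and 4.16 FPKM, against 14.7 FPKM in control, and Akr1d1, a reductase of bile acid synthesis, at 0.959 and 0.621 FPKM, against 3.996 FPKM in control. Slc35d2, a nucleotide sugar transporter, showed the widest gap between knockdowns among members called in both tables, with centred ratios of -2.46 ± 0.31 in HDAC2 knockdown and -3.41 ± 0.34 in Sp3 knockdown. The group also held Pbld1 and Tmem69, with centred ratios of -2.64 and -1.86 in HDAC2 knockdown.

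The 5 membrane traffic and cytoskeleton genes were Rab33b, a small GTPase of the Golgi, Synrg, a partner of the clathrin adaptor AP-1, Ankfy1, a Rab5 effector of early endosomes, Gas2l3, which links actin and microtubules, and A830007P12Rik, the older symbol of the torsin family gene Tor4a. Rab33b stood at 26.01 FPKM in HDAC2 knockdown and 16.3 FPKM in Sp3 knockdown, against 96.9 FPKM in control. Ankfy1 had the highest centred ratio of the group, with -1.94 ± 0.34 and -1.71 ± 0.23, and A830007P12Rik the lowest, with -2.86 ± 0.25 and -2.94 ± 0.15. Gas2l3 was lower in Sp3 knockdown (4.98 FPKM) than in HDAC2 knockdown (9.48 FPKM), against 35.2 FPKM in control.

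The group of predicted, clone-named and non-coding genes held the lowest ratio in HDAC2 knockdown. Vmn2r-ps129, a pseudogene of the vomeronasal receptor family on chromosome 17 (23141937 to 23143626 in mm9), stood at 25.2 FPKM in HDAC2 knockdown and 14.04 FPKM in Sp3 knockdown, against 224 FPKM in control, which was the second highest control level among the members. Its centred ratios were -3.47 ± 0.29 and -3.87 ± 0.21. The family has many similar copies, so its value is uncertain. Of 1444 olfactory and vomeronasal receptor symbols in the table, 7 were tested, and in the authors' deposited tables Vmn2r-ps129 was the 1 called lower in each knockdown, where 3.6% and 26.1% of all tested genes were. A330069E16Rik stood at 34.1 FPKM in HDAC2 knockdown and 22.3 FPKM in Sp3 knockdown, against 175 FPKM in control, and Gm15645 at 28.0 and 16.8 FPKM, against 102 FPKM in control. 4833417C18Rik and Gm14005, which have no B2 word, had centred ratios of -3.00 each in HDAC2 knockdown and of -2.97 and -3.02 in Sp3 knockdown. Mir677, a microRNA gene whose listed locus overlaps that of Atp5b, stood at 4.51 and 2.69 FPKM, against 14.2 FPKM in control, without a call.

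Gm13102 and Pramel4 lie next to each other on chromosome 4 and had almost the same values. Pramel4, of the Prame family known from germ cells and early embryos, stood at 1.99 FPKM in HDAC2 knockdown and 1.27 FPKM in Sp3 knockdown, against 12.7 FPKM in control, and Gm13102 at 1.98 and 1.248 FPKM, against 12.6 FPKM in control. Their windows around the B2 word have the same 30 letters, and if the copies are alike elsewhere their values are not independent. The other named protein genes were Trim43b, of the tripartite motif family, at 3.71 and 3.16 FPKM, against 13.8 FPKM in control, and Lrrc2, a leucine-rich repeat gene, at 3.96 and 2.46 FPKM, against 13.7 FPKM in control. In all, 13 of the 61 members had a listed locus that overlaps another one, and the labels do not state whether the authors' counting used strand.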

How the data were processed

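RNA sequencing of 6 libraries was used as deposited, in 1 table per knockdown against control. Per the submitters' processing notes, the tools were Cuffdiff, TopHat and Bowtie on build mm9, with no versions named. The labels name no annotation or strand setting, and no rule for fragments with several matches. Columns, per the file headers, are the locus, the test status, FPKM of both groups, the log2 ratio (fold), the statistic, its p-value and q-value, and the authors' verdict. The authors' FPKM values are 1 per group, so no value per library was used, and depth is unknown because FPKM keeps no read count.

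The members and lists were chosen with earlier results of these data known. Ratios were computed from the deposited FPKM without a pseudocount, and centred on the median log2 ratio over all genes that reached 1 FPKM in control or knockdown. The standard error is the log2 ratio divided by the authors' test statistic with its sign reversed, a score deposited in the same table. No test was added to the authors' Cuffdiff q-values, which were deposited with a threshold of 0.05 for a call. Named genes were Hdac2 and Sp3, the 12 members with the highest control FPKM, the 10 with the lowest ratio per table, the 5 with the largest and the 5 with the smallest difference between knockdowns, the 3 nearest on each side of the threshold, members in a list and members without a call. Further members and list genes were named by role after their values were seen. Words of 16 bases with under 3 different bases or runs of 6 or more of 1 base were left out, as were words that overlap a chosen one by 8 or more bases. Transcripts were those of GENCODE M21 and promoters those of RefSeq, both on another build than the files, so neither gave coordinates to the expression values. Member selection was tested on simulated data. Python 3.11.15, numpy 2.4.6, pandas 2.3.3 and matplotlib 3.10.9 were used.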

Additional observations from a re-analysis of the deposited data

How the results depend on the processing

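Of 64 alternatives over 8 results, 48 kept their value within the set limits and 16 moved. The number of members was 117 with log2 ratios below -1 and 29 below -2, and 81 with centred ratios or with upper-quartile scaling, 84 when genes listed at 0 in a knockdown were counted, and 47 with a pseudocount of 1. The median raw log2 ratio in HDAC2 knockdown was -2.33 for ratios below -2. That in Sp3 knockdown was -2.21 below -1 and -2.95 below -2. With either scaling the median in Sp3 knockdown is that of scaled ratios over the 81 genes so chosen. It was -2.35 with centred ratios and -2.36 with upper-quartile scaling. Members within 1.5-fold between knockdowns numbered 66 below -1, 13 below -2, 76 with either scaling, 19 without predicted, clone and pseudogene symbols, 8 at a narrower limit and 58 at 2-fold. The single commonest word stood in 9 members and GGGGCGGGG in 5. Members called in both of the authors' deposited tables numbered 53 to 54, and members with a B2 word 33 to 46 under 7 alternatives chosen after seeing the data. No paired analysis was possible because the deposited tables hold 1 value per group, and for the same reason no library could be left out.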

Other observations

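A further 55 genes with a matched transcript had their less negative raw log2 ratio between -1.5 and -1, just short of the rule, and 28 of them held a B2 word. Those with a word included Loxl2, a lysyl oxidase of collagen, at 23.7 FPKM in HDAC2 knockdown and 7.99 FPKM in Sp3 knockdown, against 64.0 FPKM in control. Mpv17l, a relative of the member Mpv17, stood at 27.6 and 18.8 FPKM, against 69.4 FPKM in control. Tyr, the tyrosinase of pigment cells, stood at 13.96 and 7.89 FPKM, against 38.2 FPKM in control, and Xaf1, an antagonist of the caspase inhibitor Xiap, at 3.51 and 2.26 FPKM, against 9.35 FPKM in control. Sumf2, whose locus overlaps that of the member Phkg1, stood at 17.6 and 15.4 FPKM, against 44.3 FPKM in control, and it holds a word too.

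Genes of that range without a B2 word included the neuronal activity genes Arc, Fosb and Btg2. Arc stood at 8.07 FPKM in HDAC2 knockdown and 23.5 FPKM in Sp3 knockdown, against 49.2 FPKM in control, and Fosb at 0.953 and 2.71 FPKM, against 7.32 FPKM in control. Btg2 stood at 14.8 and 12.8 FPKM, against 33.7 FPKM in control. In raw values Arc and Fosb were lower in HDAC2 knockdown than in Sp3 knockdown. Btg2 had the reverse raw order, as did 60 of the 61 members and 81.2% of all genes. After centring, Btg2 was lower in HDAC2 knockdown, like Arc and Fosb, while 44 of the 61 members were lower in Sp3 knockdown. Arc, Fosb and Btg2 were named after their values were seen. They belong to a list of 15 activity-regulated genes, all tested. The authors' deposited tables called 13 of the list lower and 0 higher in HDAC2 knockdown, where 3.6% and 24.6% of all tested genes were. In Sp3 knockdown 10 were called lower and 1 higher (Bdnf), where the shares were 26.1% and 13.2%. Bdnf stood at 16.6 FPKM in HDAC2 knockdown and 32.6 FPKM in Sp3 knockdown, against 22.8 FPKM in control.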
